A study of Mus musculus with 21 samples.

Results

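The DNA replication and S-phase genes are 51 mouse genes, listed by symbol, for the machinery that marks, opens and copies replication origins, supplies nucleotides, packs new DNA and guards the fork. They were read across 6 groups of sorted blood stem and progenitor cells. Each symbol matched 1 Ensembl gene, so all 51 members were found among the 54446 gene IDs counted. All 51 also lay among the 21100 genes that passed the filter on low counts and were tested. The rule that lists them uses no measured value, but the members were chosen with earlier results of these data known.

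The series profiled total RNA of 3 populations from the bone marrow of 12-week-old C57BL/6 mice, from 4 pairs of Phf6 knockout (KO) and wild-type (WT) animals. Phf6 encodes a chromatin-associated PHD finger protein, and how the allele was made or which promoter drives its loss is not given in the sources used here. Of the sorted populations, LT-HSC are long-term stem cells of the blood, MPP2 are multipotent progenitors that lean to megakaryocytes and red cells, and MPP3 are multipotent progenitors that lean to granulocytes and monocytes. The groups were KO LT-HSC (3 libraries), WT LT-HSC (2), KO MPP2 (4), WT MPP2 (4), KO MPP3 (4) and WT MPP3 (4). Red cells were lysed, and each library came from 100 to 200 cells stained with a lineage cocktail and with antibodies to Sca-1, cKit, CD150 and CD48. Levels below are CPM, the counts of a gene scaled to a common library size, with the sizes adjusted by TMM. A gene is said to have risen or fallen where edgeR's quasi-likelihood test gave a Benjamini-Hochberg adjusted p under 0.05 over all 21100 genes.

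As background, the origin recognition complex (Orc proteins) with Cdc6 and Cdt1 loads the ring of Mcm2 to Mcm7 onto DNA before S phase, and geminin (Gmnn) holds back Cdt1 so that an origin is not loaded again in the same cycle. Cdc45 and the GINS proteins turn the ring into the active CMG helicase, polymerases alpha, delta and epsilon copy the strands with the clamp Pcna and its loader, and ribonucleotide reductase, Tyms and Tk1 supply deoxynucleotides. Many of these genes are targets of E2F transcription factors and are transcribed as a cell commits to divide. Adult long-term stem cells are known to be mostly quiescent, and multipotent progenitors divide more often.

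The promoters are shown because an E2F motif core, which the choice of members did not use, was more frequent in them than in all promoters, though most members had none. RefSeq promoter windows of build GRCm38.p6, each 300 bases long from 250 bases before to 50 bases after a transcription start, matched 41 of the 51 members by symbol, in 47 windows. Gmnn, Mcm4, Gins1, Gins2, Gins4, Rfc2, Prim2, Pole, Ccne2 and Tipin had none. The core of the E2F motif was searched on both strands as TTTCCCGC, TTTCGCGC, TTTGCCGC or TTTGGCGC, and matches were allowed to overlap. It stood in 17 of the 47 member windows (36.2%), against 744 of all 32851 windows (2.26%). By gene that was 17 of the 41 members with a window (41.5%), against 2.61% of 27025 genes. The CCAAT motif, searched on both strands, stood in 26 member windows (55.3%), against 37.4% of all windows. The members with a core were Orc1, Orc3, Cdc6, Cdt1, Mcm3, Mcm5, Mcm6, Mcm7, Gins3, Rfc3, Pola1, Pold1, Pold3, Pole2, Lig1, Hells and Clspn. A match is a run of letters and not a shown binding site.

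The windows of 4 subunits of the replicative helicase ring are printed in the direction of transcription, since each holds at least 2 cores, with the cores in capitals. They lie at chr1:20820263-20820562 (minus strand) for Mcm3, chr8:75109259-75109558 (plus strand) for Mcm5, chr1:128359656-128359955 (minus strand) for Mcm6 and chr5:138171834-138172133 (minus strand) for Mcm7.
Mcm3: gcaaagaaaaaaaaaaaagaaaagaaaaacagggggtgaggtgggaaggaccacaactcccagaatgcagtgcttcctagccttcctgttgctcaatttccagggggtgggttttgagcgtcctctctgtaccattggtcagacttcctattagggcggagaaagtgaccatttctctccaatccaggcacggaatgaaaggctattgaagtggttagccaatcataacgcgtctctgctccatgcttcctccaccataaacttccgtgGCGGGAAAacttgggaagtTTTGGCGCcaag
Mcm5: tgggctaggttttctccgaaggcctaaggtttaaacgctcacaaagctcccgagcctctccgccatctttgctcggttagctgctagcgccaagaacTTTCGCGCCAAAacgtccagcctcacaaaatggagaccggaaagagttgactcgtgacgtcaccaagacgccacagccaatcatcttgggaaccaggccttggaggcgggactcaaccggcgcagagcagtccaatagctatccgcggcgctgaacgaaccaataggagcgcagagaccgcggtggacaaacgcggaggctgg
Mcm6: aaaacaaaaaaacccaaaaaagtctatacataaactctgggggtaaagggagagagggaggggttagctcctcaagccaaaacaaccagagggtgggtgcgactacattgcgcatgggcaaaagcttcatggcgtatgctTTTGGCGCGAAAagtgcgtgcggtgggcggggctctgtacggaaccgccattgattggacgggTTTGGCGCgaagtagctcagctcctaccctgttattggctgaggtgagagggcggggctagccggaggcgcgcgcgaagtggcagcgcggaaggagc
Mcm7: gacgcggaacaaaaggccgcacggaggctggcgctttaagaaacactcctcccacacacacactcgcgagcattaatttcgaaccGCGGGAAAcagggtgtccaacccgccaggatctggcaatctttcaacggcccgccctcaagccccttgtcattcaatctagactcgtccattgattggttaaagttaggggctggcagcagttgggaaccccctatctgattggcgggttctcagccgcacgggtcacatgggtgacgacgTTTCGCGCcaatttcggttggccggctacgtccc
In Mcm5 the 2 cores run into each other, as do the first pair of the 3 cores in Mcm6, which is why their capitals form longer runs.

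The libraries held 18892723 to 31611366 counts. Phf6 itself had 43 to 395 counts in the 11 KO libraries and 1545 to 5204 counts in the 10 WT libraries. In 3 libraries at least 1 gene took over 10% of all counts: the antibody genes Igkc and Ighm held 19.8% and 14.8% in KO MPP2 1, Igkc held 11.4% in KO MPP3 1, and the rRNA gene CT010467.1 held 10.3% in KO MPP3 2, where mitochondrial genes held 12.8%. All 8 neutrophil markers were highest of their population in KO MPP2 1, in WT LT-HSC 2 and in WT MPP3 1, and all 8 B and plasma cell markers were highest of their population in KO MPP2 1 and KO MPP3 1, where they held 36.8% and 20.5% of counts. These markers also held 1.94% of counts in KO MPP2 2, 3.79% in WT MPP2 1 and 2.68% in WT MPP2 2, and at most 0.0872% in every other library. The 8 LT-HSC markers summed to 680 to 987 CPM in KO LT-HSC and 800.1 to 949 CPM in WT LT-HSC. They summed to 154 to 213 CPM in KO MPP2 and 157 to 300.0 CPM in WT MPP2. In MPP3 they summed to 124 to 709 CPM in KO, where the 709 CPM came from KO MPP3 2 and the other libraries reached 223 CPM, and to 158 to 309 CPM in WT. The 8 megakaryocyte-erythroid markers summed to 975 to 2858 CPM in KO MPP2 and 823 to 2542 CPM in WT MPP2, but in the MPP2 libraries numbered 1 and 2 (823 to 1187 CPM) they lay within or below the range of the LT-HSC libraries (847 to 1557 CPM). The 8 granulocyte-monocyte markers summed to 647 to 5061 CPM in KO MPP3 and 1337 to 5491 CPM in WT MPP3, and reached 4210 CPM in KO MPP2 1, 4044 CPM in KO MPP2 2 and 4783 CPM in WT MPP2 1. The megakaryocyte-erythroid markers summed to 381 to 804 CPM in KO MPP3 and 629 to 709 CPM in WT MPP3, below every MPP2 library. The granulocyte-monocyte markers did not separate MPP2 from MPP3. Both names are used here as the labels give them. TMM scaled the library size of KO MPP2 1 by 0.496 and those of the others by 0.770 to 1.14. Ly6a, the gene of the sort marker Sca-1, lay at 5.74 to 31.3 CPM in the MPP2 libraries numbered 3 and 4 of both genotypes and at 158 to 1429 CPM in those numbered 1 and 2. Library titles open with numbers of 52 to 64 for replicates 1 and 2 and of 162 to 212 for replicates 3 and 4, and values within each range are given beside the pooled ones. In bulk RNA, fewer cells in S phase and less RNA per cell cannot be told apart.

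Levels between genes were compared per kilobase of exon, as means over the 21 libraries. Tipin, which steadies a paused fork together with Timeless, was the highest at 211 CPM per kb, ahead of the ring subunit Mcm6 at 154, the sliding clamp Pcna at 119.8 and the licensing inhibitor Gmnn at 111 CPM per kb. Within the ring, levels ran from 38.3 CPM per kb for Mcm2 to that of Mcm6, and Mcm10, which helps fire the loaded helicase, stood apart at 4.16 CPM per kb. The lowest were Orc1, the largest subunit of the origin recognition complex, at 2.96, Chaf1a, the large subunit of the histone chaperone CAF-1, at 3.03 and the flap nuclease Fen1 at 3.25 CPM per kb. Nextera XT libraries do not mark strand, and 9 members share over 10% of their exon bases with another annotated gene. The share was 78.8% for Fen1 with the antisense gene Gm10143, 67.3% for Gins2 with Gse1 and 52.5% for Chaf1a with Ubxn6, all on the opposite strand, so the levels and differences of these members are uncertain. Pcna and Tyms have annotated pseudogenes named after them, with which reads may be shared.

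The level of the whole set was summarised in each library as the median log2 CPM over the 51 members. In LT-HSC it was 6.56, 6.93 and 6.57 in the KO libraries and 6.32 and 6.23 in the WT libraries. In MPP2 it was 6.73, 7.23, 7.25 and 7.40 in KO and 7.03, 7.30, 7.07 and 7.25 in WT. In MPP3 it was 6.76, 6.34, 7.24 and 6.92 in KO and 6.64, 6.65, 7.05 and 6.52 in WT. All 3 KO LT-HSC libraries lay above both WT LT-HSC libraries, and the genotypes overlapped in MPP2 and in MPP3. KO LT-HSC 2 lay above the other LT-HSC libraries, KO MPP2 1 below all other MPP2 libraries and KO MPP3 2 below all other MPP3 libraries.

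**Figure D1:**
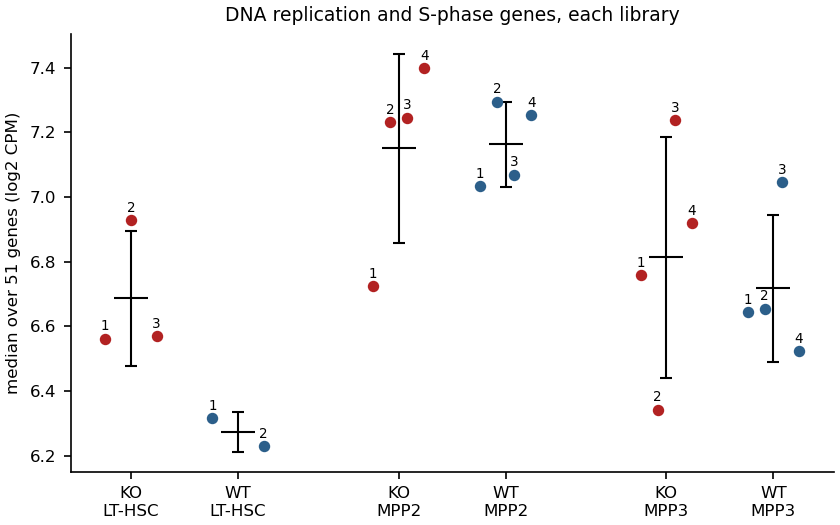
Median log2 CPM over the 51 genes in each library (points, with replicate numbers) for KO (red) and WT (blue) of each population, with the mean and SD of each group as bars. LT-HSC averaged 6.69 ± 0.209 in KO and 6.27 ± 0.0609 in WT, MPP2 7.15 ± 0.293 in KO and 7.16 ± 0.130 in WT, and MPP3 6.81 ± 0.373 in KO and 6.72 ± 0.227 in WT; the axis does not start at 0.

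Single libraries carried many members at once. KO LT-HSC 2 was the highest of the 5 LT-HSC libraries for 45 of the 51 members. KO MPP2 1 was the lowest of its 4 libraries for 48 members, and KO MPP3 2 was the lowest of its 4 for 32. KO MPP3 3 was the highest of its group for 39 members and WT MPP3 3 the highest of its group for 41. Marker lists moved with some of these libraries. In KO MPP2 1 all 8 neutrophil and all 8 B and plasma cell markers were the highest of the MPP2 libraries. In KO MPP3 2 the 8 LT-HSC markers summed to 709 CPM, against 124 to 309 CPM in the other MPP3 libraries, with 4 of the 8 highest there. Most of that sum was Hlf, at 565 CPM. In KO LT-HSC 2 the 8 erythroid markers summed to 902 CPM, against 27.3 to 261 CPM in the other LT-HSC libraries. Nearly all of the sum was Car1, at 871 CPM; 4 of the 8 were highest there, and Hbb-bt was lowest there at 4.80 CPM, against 7.07 to 26.0 CPM in the others. In KO MPP3 3 they summed to 608 CPM, against 10.1 to 42.7 CPM in the other MPP3 libraries, with 4 of 8 highest and 575 CPM of it from Car1. In WT MPP3 3 all 8 granulocyte-monocyte markers, those of the lineages to which MPP3 lean, were the highest of the WT MPP3 libraries (5491 CPM, against 1337 to 2243 CPM in the others). The part of these markers in the members' levels was not tested.

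**Figure D2:**
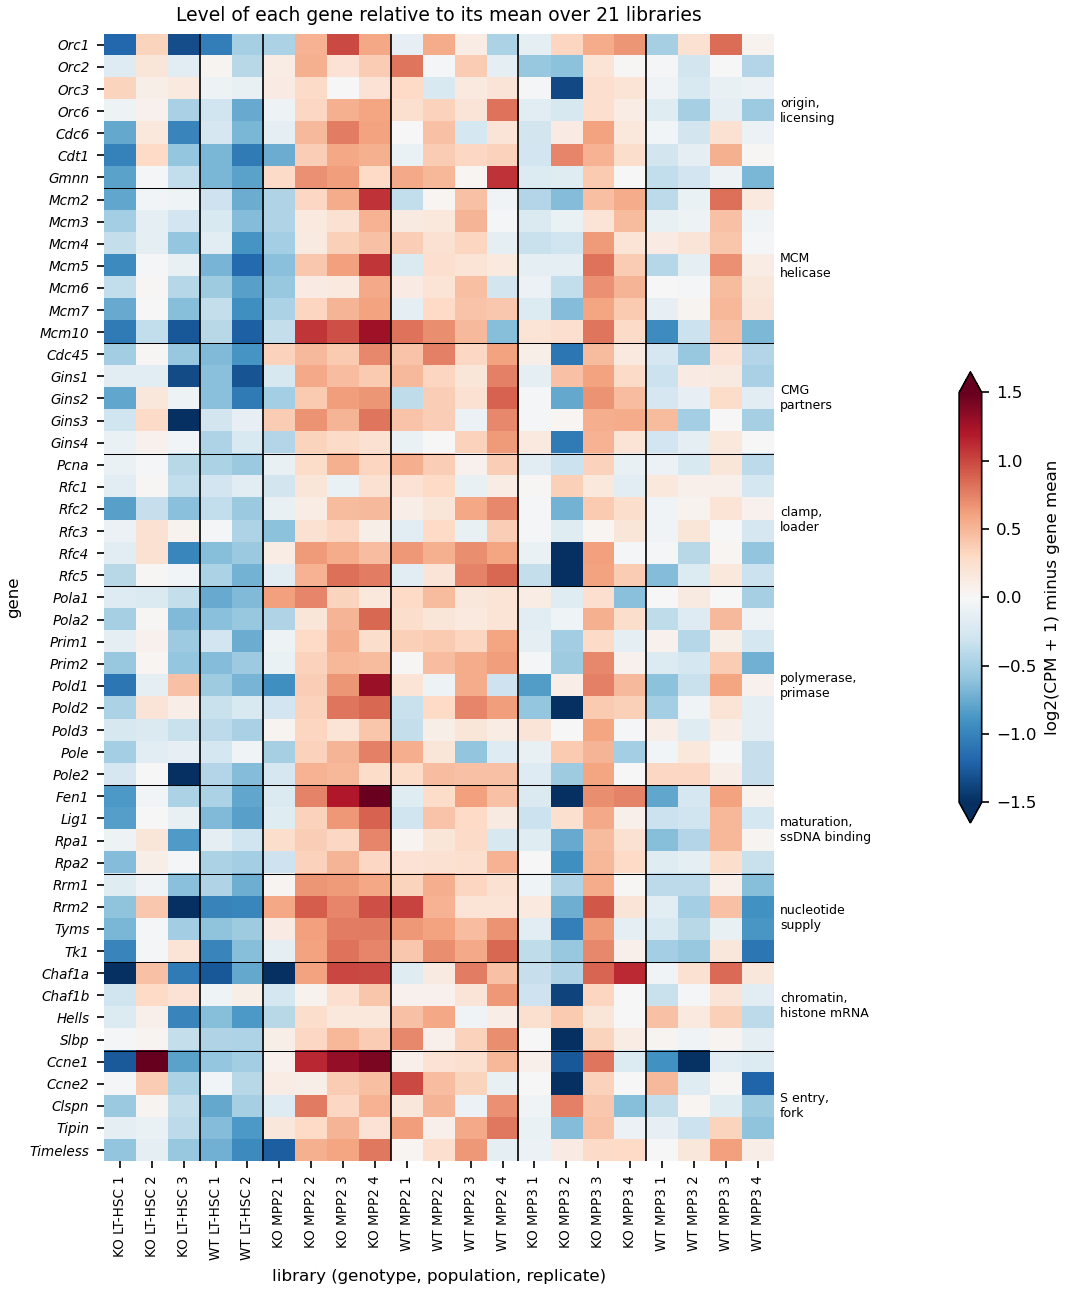
Each member (rows, grouped by role) in each of the 21 libraries (columns), as log2(CPM + 1) minus the member's mean over all libraries; red is above and blue below that mean, and colours saturate at 1.5. The MPP2 columns are mostly red except KO MPP2 1, the LT-HSC columns are mostly blue except KO LT-HSC 2, and Fen1, Slbp and Pold2 are the deepest blue cells of KO MPP3 2.

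In WT mice the set was higher in MPP2 than in LT-HSC throughout. All 51 members had a fitted log2 fold change above 0, against 49.6% of all genes tested, and their median was 0.93, against 0.00 over all genes. Gmnn and Tipin rose, which makes 2 of 51 members with 0.365% of all genes called higher, and no member fell (0.265% of genes were called lower). At an unadjusted p under 0.05 there were 33 members (64.7%), against 13% of genes. For 40 members every WT MPP2 library lay above both WT LT-HSC libraries (78.4%), against 11.6% of genes. DESeq2 called 14 members higher and limma voom 23, where they called 2.48% and 2.9% of all genes higher. The median was 0.86 within title numbers 52 to 64.

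Gmnn, which binds Cdt1 and so blocks repeat licensing, had 228, 216, 156 and 326 CPM in WT MPP2, against 94.6 and 87.1 CPM in WT LT-HSC. The 4 MPP2 libraries lay above both LT-HSC libraries, with WT MPP2 4 the highest and WT MPP2 3 the nearest to them. Its log2 fold change was 1.35 ± 0.28 (SE; edgeR adjusted p = 0.0351). Tipin had 582, 395, 558 and 652 CPM in WT MPP2, against 239.9 and 207 CPM in WT LT-HSC. The groups again did not overlap, and the lowest MPP2 library was WT MPP2 2. Its log2 fold change was 1.29 ± 0.28 (SE; edgeR adjusted p = 0.0404). Both calls rest on 2 LT-HSC libraries, and WT LT-HSC 2 held neutrophil markers at 4526 CPM in sum, against 6.77 to 58.3 CPM in the other LT-HSC libraries, whose part in the result was not tested. Other markers moved with the comparison. The B and plasma cell markers summed to 40716 and 26357 CPM in WT MPP2 1 and 2 and to 95.2 and 63.0 CPM in WT MPP2 3 and 4, against 65.8 and 69.4 CPM in WT LT-HSC, and the erythroid markers to 588 to 2946 CPM in WT MPP2, against 228 and 261 CPM in WT LT-HSC. Their part was not tested either. No member was called without WT MPP2 1 or WT MPP2 4, and 1 without WT MPP2 3. The shares of all genes called in these fits are not given here, so these counts are not read as results about the members. The median of the set without WT LT-HSC 2, a fit that keeps 1 WT LT-HSC library, was 0.80. In addition, with the mouse as a replicate block 1 member, Pola1, was called in place of both (adjusted p = 0.102 for Gmnn and 0.130 for Tipin).

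By role, the genes of nucleotide supply had the largest median log2 fold change in WT MPP2 over WT LT-HSC at 1.32 over 4 genes, followed by the CMG partners at 1.20 over 5. The smallest was that of Mcm2 to Mcm7 at 0.75 over 6 genes, and all other roles lay between 0.81 and 1.01. A separate list of 16 further nucleotide supply genes that are not members, described below, had a median of 0.54. Rrm1, the large subunit of ribonucleotide reductase, had 440.5, 507, 437 and 408 CPM in WT MPP2, against 255 and 209 CPM in WT LT-HSC (log2 fold change 0.95, edgeR adjusted p = 0.109). All MPP2 libraries lay above both LT-HSC libraries. Gins4, a subunit of the GINS complex, had 91.1, 97.2, 124 and 152 CPM in WT MPP2, against 70.8 and 83.1 CPM in WT LT-HSC (log2 fold change 0.60, edgeR adjusted p = 0.460). Its groups did not overlap, but WT MPP2 1 lay close to WT LT-HSC 2. Mcm6 had 753, 801, 947 and 571 CPM in WT MPP2, against 477 and 392 CPM in WT LT-HSC (log2 fold change 0.82, edgeR adjusted p = 0.242), again without overlap. The smallest differences were those of Pole, the catalytic subunit of polymerase epsilon, and Orc3 at 0.21 each.

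The same held for other members of high level in their role. Slbp, which binds the 3′ end of histone mRNA, had 421, 269.7, 326 and 415 CPM in WT MPP2, against 188 and 185 CPM in WT LT-HSC (log2 fold change 0.94). Prim1, the catalytic subunit of primase, had 244, 249, 237 and 286 CPM in WT MPP2, against 155 and 113 CPM in WT LT-HSC (log2 fold change 0.93). In both genes all MPP2 libraries were the higher ones. Rpa2, a subunit of the protein that coats single-stranded DNA, had 233, 234, 239 and 289 CPM in WT MPP2, against 144 and 141 CPM in WT LT-HSC (log2 fold change 0.81). Rfc2, a subunit of the clamp loader, had 490.3, 519.8, 684 and 755 CPM in WT MPP2, against 354 and 312 CPM in WT LT-HSC (log2 fold change 0.88). Neither overlapped between the groups, and none of these 4 genes passed the edgeR threshold (adjusted p from 0.0890 for Prim1 to 0.332 for Slbp).

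**Figure D3:**
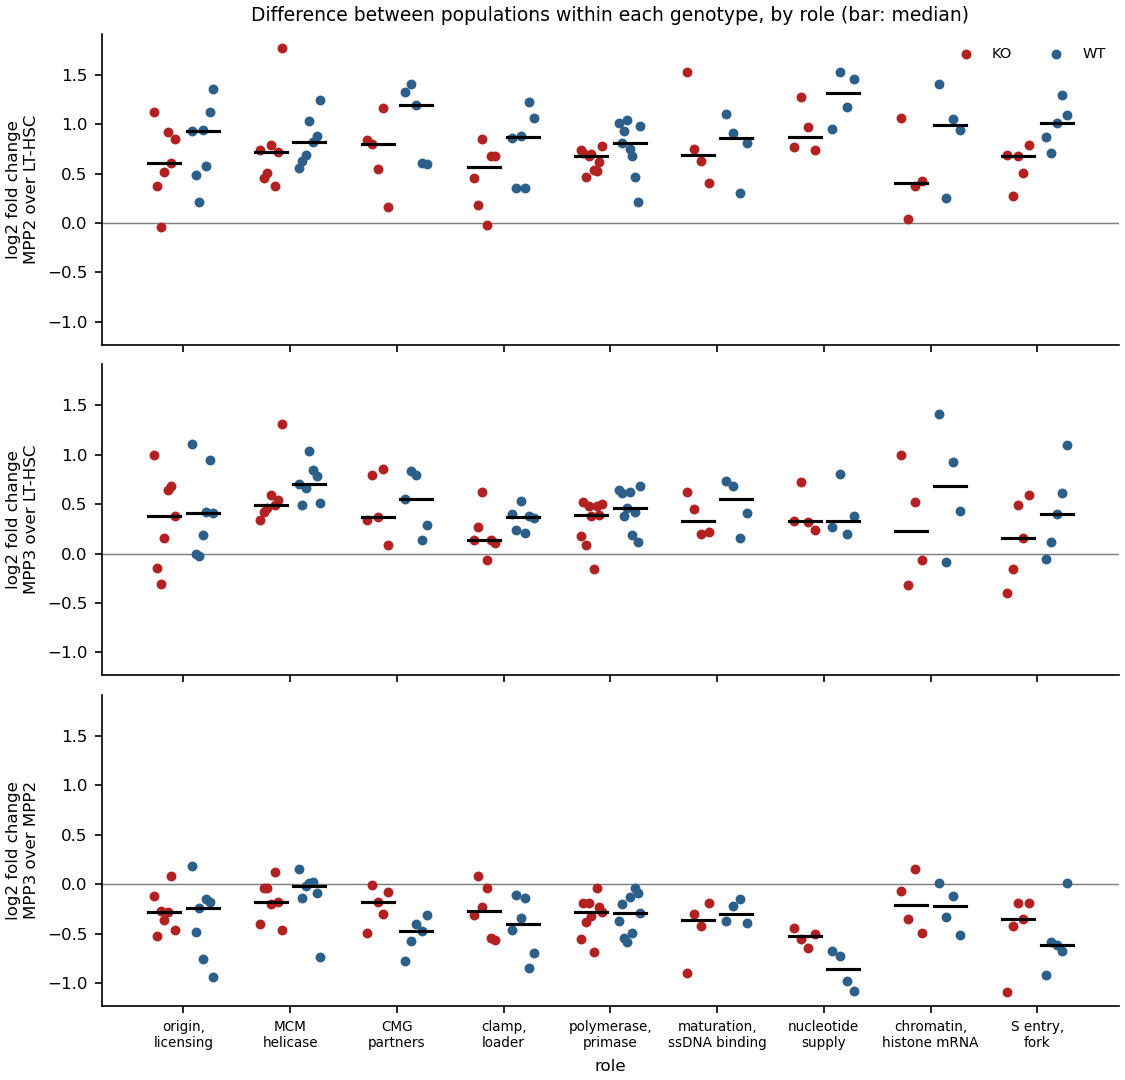
Fitted log2 fold change of each member between populations, within KO (red) and within WT (blue), grouped by role on the horizontal axis, with the median of each role as a black bar. In MPP2 over LT-HSC (top) nearly all points lie above 0; in MPP3 over MPP2 (bottom) the nucleotide supply genes have the lowest medians, -0.53 in KO and -0.85 in WT.

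The set in WT MPP3 lay between those levels. Against WT LT-HSC, 47 of the 51 members had a fitted log2 fold change above 0 (52.1% of all genes did), with a median of 0.43, against 0.03 over all genes. No member passed edgeR's threshold in this comparison, where 0.379% of genes were called higher and 0.72% lower. At an unadjusted p under 0.05 there were 12 members (23.5%), against 9.2% of genes. DESeq2 called no member (1.43% of genes were called higher and 1.58% lower), with 15 at an unadjusted p under 0.05, against 9.59% of genes. With limma voom 4 members were called, where 2.56% of genes were called higher and 5.28% lower. The median was 0.34 within title numbers 52 to 64. For 25 members (49.0%) every WT MPP3 library lay above both WT LT-HSC libraries, against 12.0% of genes. The comparison shares its LT-HSC libraries with the one above.

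The roles stood in another order here. Mcm2 to Mcm7 had a median log2 fold change of 0.75 in WT MPP3 over WT LT-HSC, and nucleotide supply 0.33. Mcm6 had 696, 683, 967 and 781 CPM in WT MPP3, against 477 and 392 CPM in WT LT-HSC (log2 fold change 0.85, edgeR adjusted p = 0.321). Hells, a chromatin remodeller of the SNF2 family, had 170.0, 139, 159.9 and 94.8 CPM in WT MPP3, against 79.6 and 68.4 CPM in WT LT-HSC and the smallest adjusted p of the set (log2 fold change 0.93, edgeR adjusted p = 0.185). Neither gene overlapped between the groups. Tyms, thymidylate synthase, had 161, 141, 174 and 102 CPM in WT MPP3, against 123 and 129 CPM in WT LT-HSC (log2 fold change 0.20, edgeR adjusted p = 0.998), and here WT MPP3 4 lay below both LT-HSC libraries. Orc2, Orc3, Chaf1b and Ccne1 were the 4 members with a fold change below 0, from -0.08 to -0.01.

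Set directly against WT MPP2, WT MPP3 was lower for 45 of the 51 members, and 6 were above 0 (51.5% of all genes were), with a median log2 fold change of -0.37, against 0.02 over all genes. Gmnn fell, 1 of 51 members, where 0.981% of genes were called lower, and no member rose (0.218% of genes were called higher). At an unadjusted p under 0.05 there were 14 members (27.5%), against 13.5% of genes. DESeq2 called 5 members lower (2.72% of genes) and limma voom 7 (1.93% of genes). The median was -0.43 within title numbers 52 to 64 and -0.33 within 162 to 212. In 12 members (23.5%) every WT MPP3 library lay below every WT MPP2 library, against 5.33% of genes, and in none did they all lie above, against 4.87% of genes. The 12 were Orc6, Gmnn, Cdc45, Gins1, Rfc4, Pola1, Prim1, Rrm1, Tyms, Tk1, Slbp and Ccne1.

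The difference was uneven over the roles. The 4 nucleotide supply genes had a median log2 fold change of -0.85 (from -1.08 to -0.68) in WT MPP3 over WT MPP2, whereas Mcm2 to Mcm7 had a median of -0.01 (from -0.14 to 0.15). Mcm10, which shares their role list but not the ring, was at -0.74 ± 0.39 (edgeR adjusted p = 0.419). Over 18 other settings, which include each library left out and the values within each range of title numbers, the median of the nucleotide supply genes ran from -1.05 to -0.71 and that of Mcm2 to Mcm7 from -0.18 to 0.18. The 16 further nucleotide supply genes that are not members had a median of -0.30. In the same comparison the 17 members with an E2F core in their promoter window had a median of -0.15, and the 24 members with a window but no core -0.50. These classes partly repeat the roles: all 4 nucleotide supply genes and Mcm2 lacked a core, and Mcm3, Mcm5, Mcm6 and Mcm7 had one. With a core and without, the medians were 0.64 and 0.38 in WT MPP3 over WT LT-HSC, but 0.88 and 0.94 in WT MPP2 over WT LT-HSC. For KO over WT they were 0.30 and 0.33 in LT-HSC, 0.05 and 0.04 in MPP2 and 0.16 and 0.14 in MPP3. No test was run between roles or between these classes.

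Gmnn had 118, 125, 145 and 95.0 CPM in WT MPP3, against 228, 216, 156 and 326 CPM in WT MPP2. All MPP3 libraries lay below all MPP2 libraries, the closest pair being WT MPP3 3 and WT MPP2 3. Its log2 fold change was -0.94 ± 0.22 (SE; edgeR adjusted p = 0.0405), and the adjusted p was 0.0674 with the mouse as a replicate block, under which Tk1 was called in its place. Tk1, thymidine kinase 1, had 68.3, 65.6, 110.3 and 45.7 CPM in WT MPP3, against 129, 159, 146 and 178 CPM in WT MPP2 (log2 fold change -1.08 ± 0.31, edgeR adjusted p = 0.107). Tyms had 161, 141, 174 and 102 CPM in WT MPP3, against 295, 286, 260.1 and 300.4 CPM in WT MPP2 (log2 fold change -0.98 ± 0.26, edgeR adjusted p = 0.0729). In both, WT MPP3 4 was the lowest library and the groups did not overlap. Orc6, the small subunit of the origin recognition complex, had 97.8, 78.7, 101 and 76.0 CPM in WT MPP3, against 131, 141, 127 and 197 CPM in WT MPP2 (log2 fold change -0.75 ± 0.19, edgeR adjusted p = 0.0647). Mcm6, by contrast, had 696, 683, 967 and 781 CPM in WT MPP3 and 753, 801, 947 and 571 CPM in WT MPP2, with the libraries of both groups interleaved (log2 fold change 0.03 ± 0.24).

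The KO populations showed the same order of medians. In KO MPP2 over KO LT-HSC, 49 members had a fitted log2 fold change above 0 (52.5% of genes did), with a median of 0.68, against 0.04 over all genes. Mcm10 rose, 1 of 51 members, where 0.758% of genes were called higher, and no member fell (1.05% of genes were called lower). At an unadjusted p under 0.05 there were 27 members (52.9%), against 16.3% of genes, and in 13 members (25.5%) the KO MPP2 libraries all lay above the KO LT-HSC libraries, against 6.59% of genes; none was lower without overlap, against 7.62% of genes. Without the 3 libraries in which at least 1 gene took over 10% of counts, 10 members were called in this comparison. The share of all genes called in that setting is not given here, so this count is not read as a result about the members. Mcm10 had 21.5, 59.3, 55.0 and 68.4 CPM in KO MPP2, against 12.8, 21.2 and 10.9 CPM in KO LT-HSC. KO MPP2 1 lay just above the highest stem cell library, KO LT-HSC 2, and the other MPP2 libraries far above it. Its log2 fold change was 1.77 ± 0.44 (SE; edgeR adjusted p = 0.0455; 0.0739 with the mouse as a replicate block, under which Pola1 was called in its place). The median over the members was 0.31 within title numbers 52 to 64, which hold KO MPP2 1 and KO LT-HSC 2. It was 0.92 within 162 to 212, where KO LT-HSC 3 is the only KO LT-HSC library.

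Between KO MPP3 and KO LT-HSC, 43 members were above 0 (51.9% of genes were) with a median log2 fold change of 0.38, against 0.03 over all genes. edgeR called no member, where 1.09% of genes were called higher and 1.56% lower, and 6 members (11.8%) had an unadjusted p under 0.05, against 15.6% of genes. DESeq2 and limma voom called 1 member each, Mcm10 and Rfc2. Over all genes DESeq2 called 3.06% higher and 3.46% lower, and limma voom 2.43% and 4.86%. The median was -0.18 within title numbers 52 to 64 and 0.66 within 162 to 212, so its direction differed between the ranges. KO MPP3 1 and KO MPP3 2 are the only KO MPP3 libraries of the first range, and in both at least 1 gene took over 10% of counts. The first range also holds KO LT-HSC 2, the highest of the 5 LT-HSC libraries for 45 members. KO LT-HSC 3 is the only KO LT-HSC library of the second range. The part of these libraries in the direction was not tested. Of the members, Mcm10, Gins1, Pold3 and Timeless (7.84%) were higher in all KO MPP3 libraries than in all KO LT-HSC libraries, against 5.28% of genes. Mcm10 had 32, 33.2, 49.0 and 34.1 CPM in KO MPP3, against 12.8, 21.2 and 10.9 CPM in KO LT-HSC (log2 fold change 1.31 ± 0.43, edgeR adjusted p = 0.127).

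Against KO MPP2, 47 members were lower in KO MPP3 and 4 were above 0 (48.1% of genes were), with a median log2 fold change of -0.30, against -0.02 over all genes. No member passed the threshold by edgeR, DESeq2 or limma voom. edgeR called 0.36% of genes higher and 0.526% lower, and gave 5 members (9.80%) an unadjusted p under 0.05, against 14.5% of genes. DESeq2 gave 6 members and limma voom 9 an unadjusted p under 0.05, against 15.1% and 17.4% of genes. Over all genes DESeq2 called 2.19% higher and 1.88% lower, and limma voom 2.43% and 1.99%. In no member were the groups without overlap, against 3.5% of genes higher and 3.59% lower. The median was -0.42 within title numbers 52 to 64 and -0.18 within 162 to 212. The median was -0.53 for nucleotide supply and -0.11 for Mcm2 to Mcm7. Over 19 other settings the first ran from -0.87 to -0.27 and the second from -0.33 to 0.06. The 16 further nucleotide supply genes that are not members had a median of -0.25. Without the 3 libraries in which at least 1 gene took over 10% of counts, the median of all members was -0.12.

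No member differed between genotypes past the threshold in any population. In LT-HSC the members lay a little higher in KO: 47 of 51 had a fitted log2 fold change above 0 (50.3% of genes did), and the median was 0.32, against 0.00 over all genes. edgeR called none of them, with 0.0% of genes called higher and 0.00474% lower, and none had an unadjusted p under 0.05, against 2.43% of genes. DESeq2 called none and gave none an unadjusted p under 0.05, against 2.78% of genes. limma voom called none and gave 14 an unadjusted p under 0.05, against 8.21% of genes. Over all genes DESeq2 called 0.0664% higher and 0.0664% lower, and limma voom 0.00948% and 0.019%. In 11 members (21.6%) all 3 KO libraries lay above both WT libraries, against 7.53% of genes, and in none did all lie below, against 10.8% of genes. The 11 were Orc3, Mcm6, Cdc45, Gins4, Pcna, Rfc5, Pola1, Pold3, Slbp, Tipin and Timeless.

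Marker lists also stood apart between the genotypes. The megakaryocyte-erythroid markers summed to 1122 to 1557 CPM in KO LT-HSC, against 847 and 884 CPM in WT LT-HSC, and Gata1, Pf4 and Vwf of the 8 were higher in all KO libraries (Pf4 at 338 to 701 CPM in KO, against 73.1 and 142 CPM in WT). The granulocyte-monocyte markers summed to 91.6 to 126 CPM in KO LT-HSC, against 228 and 237 CPM in WT LT-HSC, with 4 of the 8 lower in all KO libraries. Most of the sum was Prtn3, at 85.1 to 111 CPM in KO, against 213 and 211 CPM in WT. Elane, Cebpa and Fcgr3, the others that were lower, reached at most 2.21 CPM in any LT-HSC library. The part of these marker lists in the members' difference was not tested.

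The difference leaned on 1 library. Without KO LT-HSC 2 the median of the members was 0.13 log2, against 0.32 with it; the erythroid markers of that library are given above, and their part was not tested. Within title numbers 52 to 64, where both genotypes have libraries 1 and 2, the median was 0.42, and with the replicate number as a block it was 0.23. Ccne1, a cyclin that drives entry into S phase, had 6.07, 49.4 and 8.67 CPM in KO LT-HSC, against 10.3 and 10.8 CPM in WT LT-HSC. KO LT-HSC 2 stood far above the rest, and the other KO libraries lay below both WT libraries. Cdt1, the licensing factor that Gmnn binds, had 44.3, 112 and 60.2 CPM in KO LT-HSC, against 55.8 and 42.9 CPM in WT LT-HSC, again with KO LT-HSC 2 the highest and overlap otherwise.

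Tipin and Pola1 had the smallest p-values in LT-HSC. Tipin had 343, 349.9 and 286 CPM in KO LT-HSC, against 239.9 and 207 CPM in WT LT-HSC (log2 fold change 0.55 ± 0.28, edgeR adjusted p = 1.0). Pola1, the catalytic subunit of polymerase alpha, had 105, 103 and 93.1 CPM in KO LT-HSC, against 70.6 and 75 CPM in WT LT-HSC (log2 fold change 0.46 ± 0.24, edgeR adjusted p = 1.0). In both genes every KO library lay above both WT libraries. Gins2, a GINS subunit whose exons overlap Gse1, had 31.7, 62.5 and 52.3 CPM in KO LT-HSC, against 35.5 and 25.9 CPM in WT LT-HSC (log2 fold change 0.67 ± 0.43). Tk1 had 48.8, 96.4 and 113 CPM in KO LT-HSC, against 48.7 and 62.5 CPM in WT LT-HSC (log2 fold change 0.63 ± 0.41). Hells had 108, 132 and 62.1 CPM in KO LT-HSC, against 79.6 and 68.4 CPM in WT LT-HSC (log2 fold change 0.44 ± 0.30). These 3 overlapped between genotypes, since 1 KO library in each lay within or below the WT values. Rrm2, the small subunit of ribonucleotide reductase, was lowest of the 5 libraries in KO LT-HSC 3 at 27.5 CPM and highest in KO LT-HSC 2 at 191 CPM, with WT at 71.3 and 72.8 CPM.

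**Figure D4:**
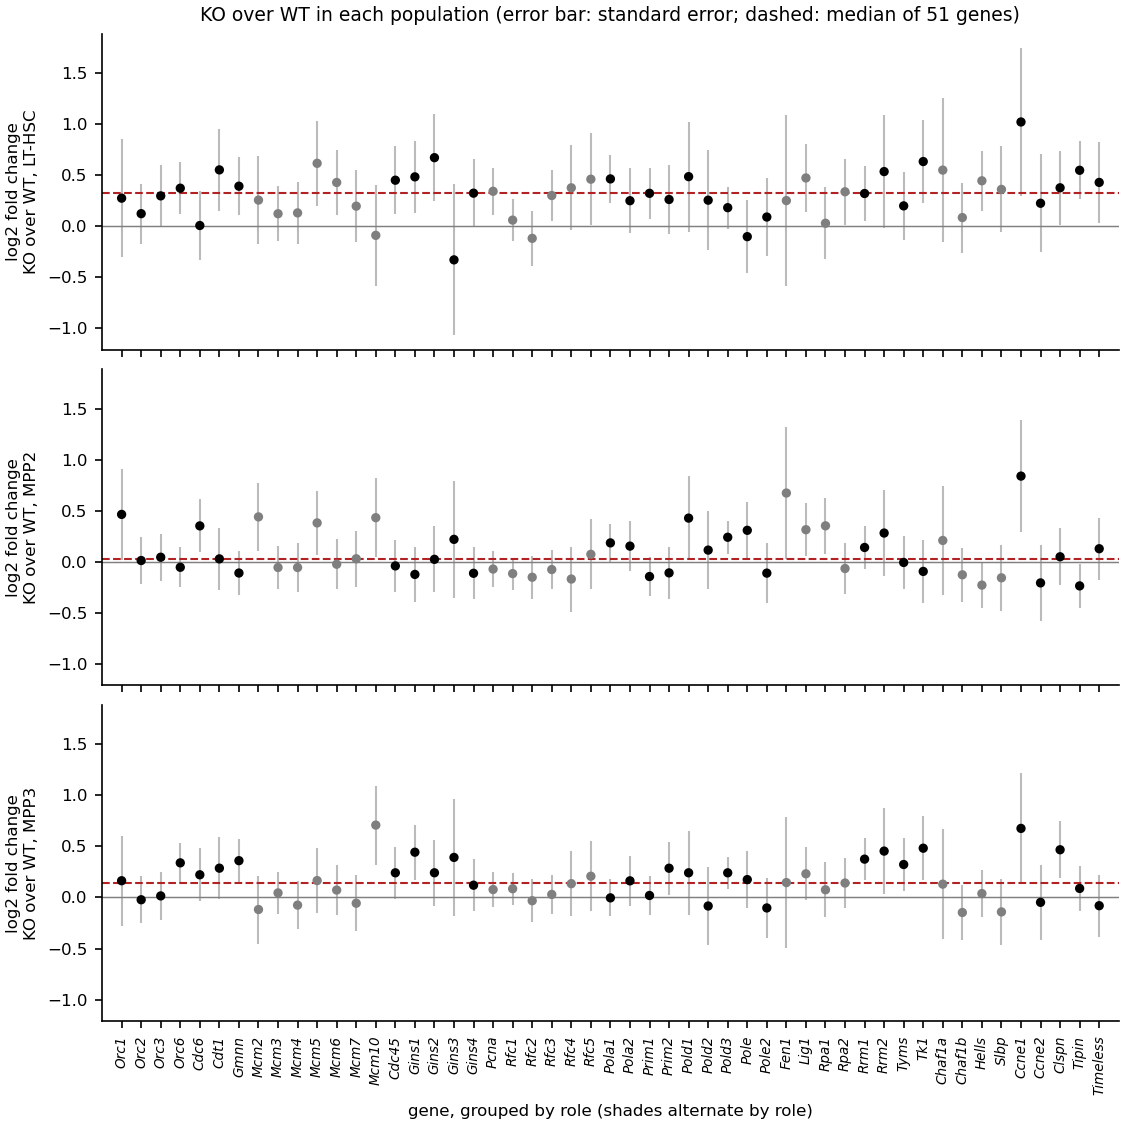
Fitted log2 fold change of KO over WT for each member, with LT-HSC, MPP2 and MPP3 as panels from top to bottom, with the standard error as bars and the median over the 51 members as a dashed red line at 0.32, 0.02 and 0.14. Most points lie above 0 in LT-HSC and on both sides of it in MPP2, and none passed the threshold.

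In MPP2 the members lay on both sides of no difference: 27 members were above 0 and 24 below (51% of genes were above 0), with a median log2 fold change of 0.02, against 0.01 over all genes. edgeR called no member, where 0.00474% of genes were called higher and 0.00948% lower, and no member had an unadjusted p under 0.05, against 6.72% of genes. DESeq2 and limma voom also called none and gave none an unadjusted p under 0.05, against 5.99% and 7.8% of genes. Over all genes DESeq2 called 0.0758% higher and 0.09% lower, and limma voom 0.00474% and 0.00948%. In no member did all KO libraries lie to 1 side of all WT libraries, against 1.43% of genes higher and 1.08% lower without overlap. The median was -0.16 within title numbers 52 to 64, which hold KO MPP2 1, and 0.15 within 162 to 212. It was 0.14 without KO MPP2 1, in which all 8 neutrophil markers (14904 CPM, against 5.20 to 34.0 CPM in the other KO MPP2 libraries) and all 8 B and plasma cell markers were the highest.

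Ccne1 had 16.7, 36.2, 41.3 and 44.0 CPM in KO MPP2, against 16.8, 18.7, 18.9 and 22.9 CPM in WT MPP2, the smallest p of the set there (log2 fold change 0.84 ± 0.55, edgeR adjusted p = 0.855). The KO libraries numbered 2 to 4 lay above all WT libraries and KO MPP2 1 just below them. Mcm2, a ring subunit, had 182, 309, 369 and 532 CPM in KO MPP2, against 193, 255, 338 and 240.0 CPM in WT MPP2 (log2 fold change 0.44 ± 0.33). Cdc6, the licensing ATPase, had 55.1, 85.2, 104 and 92.4 CPM in KO MPP2, against 60.9, 82.9, 50.5 and 69.7 CPM in WT MPP2 (log2 fold change 0.35 ± 0.26; -0.040 within title numbers 52 to 64). Both overlapped between genotypes, with KO MPP2 1 the lowest in Mcm2. Pold3, an accessory subunit of polymerase delta, had 83.2, 101, 93.2 and 108 CPM in KO MPP2, against 62.7, 85.5, 91.2 and 87.0 CPM in WT MPP2 (log2 fold change 0.24 ± 0.16). Rpa1, the large subunit of the single-strand binding protein, had 220.0, 238, 228 and 305 CPM in KO MPP2, against 189, 209, 224 and 156 CPM in WT MPP2 (log2 fold change 0.35 ± 0.27). Their libraries overlapped as well. By role, medians ran from -0.14 for chromatin assembly and histone mRNA to 0.33 for strand maturation and single-strand binding, each over 4 genes.

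**Figure D5:**
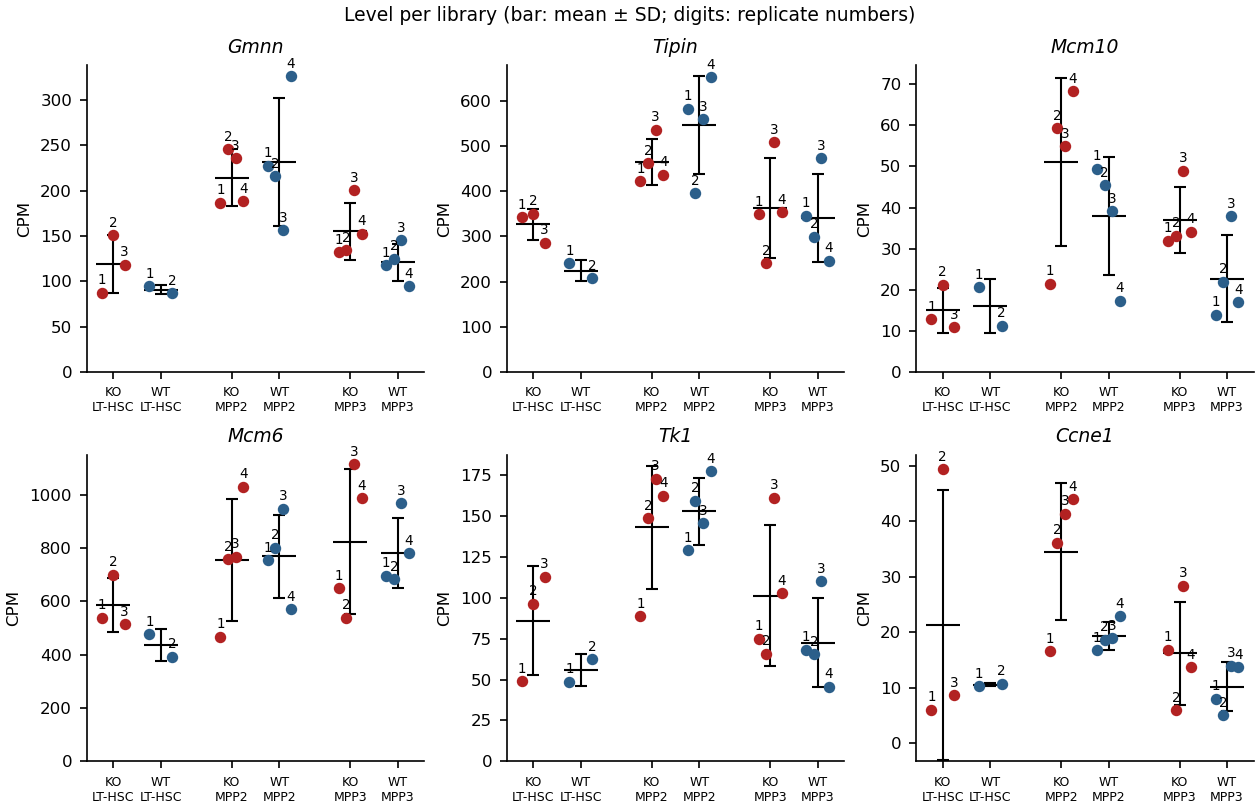
CPM of 6 members in each library (points, with replicate numbers), KO in red and WT in blue for each population, with the mean and SD of each group as bars. Gmnn and Tipin are higher in every MPP2 library than in any LT-HSC library, and Ccne1 shows KO LT-HSC 2 at 49.4 CPM above the other LT-HSC libraries.

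In MPP3, 39 members were above 0 in KO over WT (50.5% of genes were), with a median log2 fold change of 0.14, against 0.00 over all genes. edgeR called none, where 0.00474% of genes were called higher and 0.00474% lower, and none had an unadjusted p under 0.05, against 5.62% of genes. DESeq2 called none and gave none an unadjusted p under 0.05, against 5.19% of genes. With limma voom none was called and 9 had an unadjusted p under 0.05, against 10% of genes. Over all genes DESeq2 called 0.118% higher and 0.0521% lower, and limma voom 0.00474% and 0.0284%. No member was without overlap, against 1.07% of genes higher and 1.62% lower. The median depended on single libraries: it was -0.02 without KO MPP3 3, whose erythroid markers are given above, 0.24 without KO MPP3 2, 0.29 without WT MPP3 3 and 0.41 without the 3 libraries in which at least 1 gene took over 10% of counts. Within title numbers 52 to 64, which hold KO MPP3 1 and KO MPP3 2 of those 3 libraries, it was -0.09, and within 162 to 212 it was 0.32.

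The nucleotide supply genes had the largest role median in KO over WT MPP3 at 0.41 (from 0.32 to 0.48), and all 4 were above 0. The 16 further nucleotide supply genes that are not members had a median of 0.08. Rrm1 had 333, 255, 514 and 352 CPM in KO MPP3, against 266, 264, 367 and 223 CPM in WT MPP3 (log2 fold change 0.38 ± 0.21, edgeR adjusted p = 0.913). The groups overlapped, with KO MPP3 3 the highest of all. Mcm10 had 32, 33.2, 49.0 and 34.1 CPM in KO MPP3, against 13.9, 22.0, 37.8 and 16.9 CPM in WT MPP3 (log2 fold change 0.71 ± 0.39, edgeR adjusted p = 0.913). All KO libraries lay above 3 of the 4 WT libraries, and WT MPP3 3 lay among them. Gmnn had 132, 134, 201 and 153 CPM in KO MPP3, against 118, 125, 145 and 95.0 CPM in WT MPP3 (log2 fold change 0.36 ± 0.22). Orc6 had 99.6, 93.8, 133 and 120.3 CPM in KO MPP3, against 97.8, 78.7, 101 and 76.0 CPM in WT MPP3 (log2 fold change 0.34 ± 0.19). Clspn, the adaptor that passes the fork checkpoint signal to Chk1, had 34.0, 60.5, 47.2 and 22.4 CPM in KO MPP3, against 27.3, 36.0, 31.1 and 24.2 CPM in WT MPP3 (log2 fold change 0.47 ± 0.28). These 3 overlapped between genotypes. Mcm2 to Mcm7 had a median of -0.01 in the same comparison.

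The difference of the KO effects between populations was tested in the same fit, and no member passed for any pair of populations (0.0% of genes were called in either direction). The KO effect in MPP2 minus that in LT-HSC had a median of -0.25 log2 over the members, with 42 below 0 and 1 (1.96%) at an unadjusted p under 0.05, against 3.6% of genes. That in MPP3 minus that in LT-HSC had a median of -0.20, with 39 below 0, and that in MPP3 minus that in MPP2 a median of 0.11, with 32 above 0; neither had a member at an unadjusted p under 0.05, against 2.47% and 4.47% of genes. DESeq2 and limma voom called no member in these either, with 1, 0 and 0 members at an unadjusted p under 0.05 by DESeq2 and 2, 1 and 0 by limma voom. Over all genes these shares were 3.32%, 2.25% and 3.7% by DESeq2 and 5.66%, 4.9% and 4.55% by limma voom. In these comparisons DESeq2 called at most 0.0711% of all genes in either direction, and limma voom 0.0%. The 2 differences that subtract the effect in LT-HSC share those 5 libraries.

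A further 81 genes of the pathway that are not members were read in 4 lists: 27 other fork and origin factors, 16 of nucleotide supply, 20 of E2F and G1-S control and 18 of S-phase chromatin and checkpoint. None passed for KO over WT in any population. In WT MPP2 over WT LT-HSC 76 of the 81 were above 0 (49.6% of all genes were), with a median log2 fold change of 0.77. Of the 81, 4 rose and none fell, where 0.365% of all genes were called higher and 0.265% lower: Fbxo5, Exo1, Nasp and Rpa3. Fbxo5 encodes Emi1, an inhibitor of the anaphase-promoting complex that protects geminin from destruction. It averaged 119.9 ± 11.1 CPM in WT MPP2 (SD, n = 4), against 44.2 ± 7.83 CPM in WT LT-HSC (n = 2; log2 fold change 1.44, edgeR adjusted p = 0.0328). It fell in WT MPP3 at 56.4 ± 10.9 CPM, against that WT MPP2 level (log2 fold change -1.09, edgeR adjusted p = 0.0241), as did the histone chaperone Asf1b, the mitotic kinase Cdk1 and the nucleoside diphosphate kinase Nme1, and no gene of the lists rose there. That makes 4 of 81 lower, where 0.981% of all genes were called lower and 0.218% higher. Asf1b averaged 50.5 ± 13 CPM in WT MPP3, against 147 ± 32 CPM in WT MPP2 (log2 fold change -1.54, edgeR adjusted p = 0.00710).

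In KO MPP2 over KO LT-HSC 6 of the 81 rose and none fell, where 0.758% of all genes were called higher and 1.05% lower: E2f8, Fbxo5, Ccna2, Asf1b, Brip1 and Top2a. E2f8, an E2F family repressor, averaged 64.6 ± 17.2 CPM in KO MPP2 (SD, n = 4), against 11.7 ± 6.60 CPM in KO LT-HSC (n = 3; log2 fold change 2.47 ± 0.44, edgeR adjusted p = 0.00536). Brip1, a helicase of the Fanconi anaemia pathway, also rose in KO MPP3 over KO LT-HSC (log2 fold change 1.75, edgeR adjusted p = 0.0190), as the only gene of the lists. Over all genes 1.09% were called higher there, so 1 of 81 is near that share. In WT MPP3 over WT LT-HSC the MCM-binding protein Mcmbp rose alone (log2 fold change 1.38, edgeR adjusted p = 0.0410), and in KO MPP3 over KO MPP2 Asf1b fell alone (log2 fold change -1.31, edgeR adjusted p = 0.0188). Each was 1 of 81, where 0.379% of all genes were called higher in the WT comparison and 0.526% lower in the KO comparison. In KO over WT the medians of the 81 genes were 0.31 for LT-HSC, 0.09 for MPP2 and 0.18 for MPP3.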

How the data were processed

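The deposited values are whole-number read counts per gene in 21 libraries. The submitters' processing notes name STAR and the genome build mm10. Which program and annotation made the counts, and all versions, are not given in the sources at hand. Of 54446 IDs, 54409 matched GENCODE M21 for symbols. In R 4.3.3, edgeR 4.0.16 (filterByExpr, minimum count 10, TMM, robust quasi-likelihood) fitted the 6 groups together and gave 12 comparisons, with Benjamini-Hochberg adjustment over 21100 genes. DESeq2 1.42.0 and limma 3.58.1 (voom), other scalings and filters, left-out libraries, replicate blocks and title numbers were alternatives. The fits were tested on simulated data. P-values measure the spread between these libraries, which held 18892723 to 31611366 counts each; the lowest count of a member in any library was 5 (Fen1).

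Members and lists were chosen with earlier results of these data known. Values by library are given for the highest member of each role, the 5 smallest p-values of each KO over WT comparison and the members past the threshold between populations; Ccne1, Cdt1 and Rrm2 in LT-HSC and Hells, Orc6, Tk1 and Tyms between populations were added after their values were seen. Same-numbered KO and WT libraries deviated together, with correlations of 0.554 to 0.623 in MPP2 and 0.220 to 0.324 in MPP3, and the labels name pairs of mice, so the numbers were taken to pair the samples. Differently numbered libraries of 1 title range also correlated, up to 0.554 in MPP2 and 0.306 in MPP3, so mouse pair and title range are not cleanly told apart. In LT-HSC the values of 0.0853 and 0.179 say little, since centring 2 WT libraries gives the other pairing the opposite sign. Between populations of 1 genotype, same-numbered libraries correlated at -0.0867 to 0.321 for LT-HSC with an MPP population and at 0.00649 to 0.724 for MPP2 with MPP3. The title number of KO LT-HSC 3 leaves its mouse uncertain, so its block was also fitted with number 4.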

Additional observations from a re-analysis of the deposited data

Results flagged for a closer look

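For 21 genes picked by the naming rule and for the median of the set, 88 groups of 4 libraries were examined, and 6 held a library whose gap to its nearest neighbour took more of the group's range than Dixon's 95% limit for 4 values; chance alone marks about 1 group in 20. KO MPP2 1 was the low library in 3 of them. Rrm1 had 357 CPM there, against 554, 542 and 521 CPM in the other KO MPP2 libraries (gap 0.860 of the range). Gins4 had 71.8 CPM there, against 124, 119 and 115 CPM (gap 0.864), and Hells 93.5 CPM, against 150.2, 139 and 139.5 CPM (gap 0.836). Slbp, the histone mRNA binding protein, had 54.6 CPM in KO MPP3 2, against 256, 324 and 276 CPM in the other KO MPP3 libraries (gap 0.867). Mcm10 was high in KO MPP3 3 at 49.0 CPM, against 32, 33.2 and 34.1 CPM (gap 0.849), and Rpa2 was high in WT MPP2 4 at 289 CPM, against 233, 234 and 239 CPM (gap 0.881).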

How the results depend on the processing

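No member was called for KO over WT, or for a difference of KO effects, under any alternative. The median KO over WT of the members in LT-HSC was 0.13 to 0.43 with 1 library left out at a time, the lowest without KO LT-HSC 2. Between populations every called member kept its direction, but the number called moved with the setting. In WT MPP2 over WT LT-HSC it was 14 with DESeq2, 23 with limma voom, 0 with no filter, 1 with the replicate block, 4 with a term for title numbers, 0 within title numbers 52 to 64, 15 without the 3 libraries in which at least 1 gene took over 10% of counts (a setting chosen after seeing the data) and 0 to 2 with 1 library left out. The median there was 0.75 with the title term and 0.80 to 0.97 with 1 library left out. In WT MPP3 over WT LT-HSC it was 4 with limma voom, 3 with only the groups compared, 1 with the title term and 1 without the 3 libraries. In WT MPP3 over WT MPP2 it was 5 with DESeq2, 7 with limma voom, 0 with no filter, 2 with only the groups compared, 4 with the title term, 0 within title numbers 52 to 64, 7 without the 3 libraries and 0 to 1 with 1 library left out (0 without WT MPP2 1, WT MPP2 4 or any WT MPP3 library). In KO MPP2 over KO LT-HSC it was 7 with DESeq2, 8 with limma voom, 0 with only the groups compared and 3 with the title term. It was 0 with the replicate block that puts KO LT-HSC 3 with number 4, and 0 within title numbers 52 to 64. Without the 3 libraries it was 10, and with 1 library left out 0 to 3. The median of the members in this comparison was 0.31 within title numbers 52 to 64. In KO MPP3 over KO LT-HSC it was 1 with DESeq2, 1 with limma voom, 2 without the 3 libraries and 0 to 1 with 1 library left out. The median of the members in this comparison was -0.18 within title numbers 52 to 64. Cdc6 in KO over WT MPP2 turned to -0.040 within title numbers 52 to 64. The replicate block changed no other count. The causes were not tested. For settings other than DESeq2 and limma voom, the share of all genes called is not given here. Those counts are therefore not read as results about the members. In KO MPP2 over KO LT-HSC, DESeq2 called 2.7% of all genes higher and 3.2% lower, and limma voom 2.69% and 5.55%. Over the alternatives, the adjusted p of Gmnn in WT MPP2 over WT LT-HSC ran from 0.000277 to 0.515, that of Tipin from 0.000656 to 0.540, that of Gmnn in WT MPP3 over WT MPP2 from 0.00275 to 0.599 and that of Mcm10 in KO MPP2 over KO LT-HSC from 0.00181 to 0.375. LT-HSC has 2 WT libraries, none of them in title numbers 162 to 212, so no KO over WT value for LT-HSC exists there. KO LT-HSC has 1 library there, so no count of members called against it is given for that range. Each library comes from 100 to 200 sorted cells, and the share of cell number and of depth in the spread was not tested.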
